A study of Caenorhabditis elegans with 8 samples.

Results

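Embryos of the Caenorhabditis elegans strain FAS43, a mutant in its H3.3 histone genes, were compared with embryos of the wild-type laboratory strain N2 by RNA sequencing. The members were the 4 mixed-stage embryo libraries, 2 of N2 and 2 of FAS43, out of 8 libraries in the series; they were taken by their labels. FAS43 carries the joint allele uge44 in his-69 and his-70, tm2066 in his-72, uge18 in his-74 and ok2289 in his-71. All worms were cultured at 20 °C, and no further agent or allele is named for either strain. The labels give neither the age of the embryos nor whether the libraries of a genotype came from separate cultures, so the p-values rest on library-to-library spread alone and that spread may be technical.

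Histone H3.3 is the form of histone H3 that cells place in chromatin outside of DNA replication, at active genes and other sites of nucleosome turnover. Replicative H3, made in S phase, is the other main form. Chaperones such as HIRA and the remodeler XNP/ATRX serve the H3.3 pathway. In the worm H3.3 is abundant in the germline and in embryonic chromatin, and worms without it are viable. A mixed-stage embryo collection holds every stage from the fertilized egg to the folded embryo, so 2 collections can differ in mean age as well as in genotype.

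Sequenced libraries held between 17408914 and 30127179 counts. All 12 maternal markers and 9 of 11 zygotic markers of embryos were tested, with mean levels from 3.33 to 992.7 CPM (counts scaled by the TMM library size). No major sperm protein (msp) gene was listed, which is not a measured level, so sperm RNA could not be read from these genes. The 2 listed vitellogenin (yolk protein) genes, markers of the adult intestine, together had between 0.639 and 1.88 CPM, near 0.

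His-72 and his-71 were almost absent from FAS43 embryos, while his-74 was not. His-72 had 2213 and 1011 CPM in the N2 libraries and 1.37 and 1.28 CPM in the FAS43 libraries. For his-71 the levels were 89.8 and 98.3 CPM in N2 against 0.0943 and 0.120 CPM in FAS43. For both genes the genotypes were far apart. The 95% interval of the log2 fold change (FAS43 over N2) ran from -12.08 to -8.41 for his-72 (edgeR adjusted p = 1.163e-23) and from -11.70 to -7.71 for his-71 (edgeR adjusted p = 1.22e-17). His-74 had 133.6 and 47.0 CPM in N2 against 63.5 and 82.4 CPM in FAS43, which overlapped, and the interval of its log2 fold change ran from -1.56 to 0.94. His-69 and his-70 were not listed in the embryo table and were not analysed here.

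Next to his-72, one gene was higher in FAS43. Y75B8A.33, a protein-coding gene known by its sequence name, spans III:12361838-12367373 of WBcel235 on the minus strand, with 101 bases between it and his-72, which spans III:12367475-12369050 on the same strand. It had 0.931 and 1.08 CPM in N2 and 279 and 269 CPM in FAS43, a log2 fold change with an interval from 6.35 to 9.82 (edgeR adjusted p = 3.088e-16). The other genes around the mutated loci were examined for similar changes. Of 24 tested genes that lie within 20 kb of the 5 H3.3 genes, 1 was called (Y75B8A.33), against 0.022% of all genes. Estimates lay within 1.5-fold for 17 of the 24, a smaller share than the 85.1% of all genes. These shares were not matched for level, and some of the 24 had few counts. F45E1.5, for example, had 7 and 9 in N2 and 12 and 15 in FAS43. Of all genes, 71.9% lay within 1.5-fold at 1 to 5 CPM and 61.8% under 1 CPM. At his-74, whose locus lies on V from 12659704 to 12660330, ccch-3 is 17 bases away and had a log2 fold change of 0.05 (SE 0.644). On the his-69 and his-70 side, rcq-5, a RecQ-type helicase gene 384 bases from his-69, had one of -0.16 (SE 0.649). At his-71, F45E1.5, 647 bases away, had an estimate of 0.90 (SE 1.03). F45E1.4, 3909 bases away, had an estimate of 0.80 (SE 0.799), while sdpn-1 and sem-5 had -0.35 and -0.17. Y49E10.26, 18841 bases from his-72, had an estimate of 1.09 (SE 0.742). Estimates of the genes not called ran from -0.70 to 2.88. The snoRNA gene Y49E10.36, chosen after its values were seen, lies inside his-72 from 12368319 to 12368544. It had few counts, 3 and 8 in the N2 libraries and 37 in each FAS43 library. The genotypes did not overlap, but it was not called (log2 fold change 2.88, SE 1.04, edgeR adjusted p = 0.9999) except with age index B, described below, and with a crossed replicate block, and reads of his-72 and of this gene may be hard to tell apart.

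**Figure D1:**
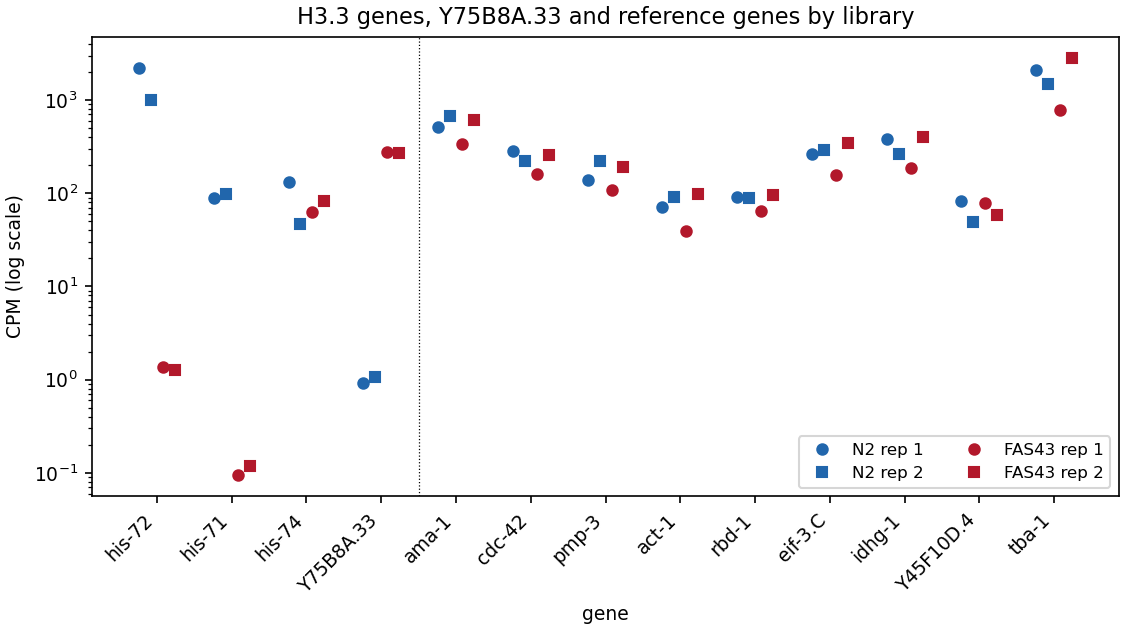
CPM on a log axis for the listed H3.3 genes, Y75B8A.33 (left of the dotted line) and the reference genes, with 1 point per embryo library (blue N2, red FAS43, circles replicate 1, squares replicate 2). His-72 and his-71 lie at or under 1.37 CPM in both FAS43 libraries and Y75B8A.33 near 1 CPM in both N2 libraries, while the points of each reference gene overlap between genotypes.

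These 3 genes were all that passed the test. Among 13617 genes, 1 was called higher (0.00734%) and 2 lower (0.0147%) in FAS43 at an edgeR adjusted p under 0.05, and 95 genes (0.698%) had an unadjusted p under 0.05. DESeq2 called the same numbers, 1 and 2. What the remaining genes allow was therefore read from the size of their estimates and intervals, and from the libraries themselves.

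Embryo age was read in each library from lists of stage markers. The maternal list holds RNAs that the mother loads into the oocyte and that embryos degrade, such as mex-5, pos-1 and oma-1. The late embryo list holds muscle filament and apical matrix genes switched on in elongating embryos, such as myo-3 and noah-1. The early zygotic list holds genes first transcribed by the embryo, such as end-1 and pes-10. The mean log2(CPM + 1) of the 35 tested late genes was 6.45 in N2 replicate 1 and 7.76 in N2 replicate 2, and it was 7.35 in FAS43 replicate 1 and 6.502 in FAS43 replicate 2. N2 replicate 2 and FAS43 replicate 1 thus carried more late embryo RNA than the other 2 libraries, 1 in each genotype. In whole embryos, fewer cells of a type and less RNA per cell cannot be told apart.

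The early genes did not mirror this in the same way in both genotypes. The mean of the 28 tested maternal genes was 5.48 and 5.47 in N2 replicates 1 and 2, against 4.47 and 5.96 in FAS43 replicates 1 and 2. FAS43 replicate 1 was low in maternal RNA, while the N2 libraries were alike. The mean of the 29 early zygotic genes was 5.39 and 4.27 in N2 replicates 1 and 2 and 4.67 and 4.94 in FAS43 replicates 1 and 2, lowest in N2 replicate 2. The 2 libraries rich in late RNA therefore differed in what they lacked, and a single number for age describes them only in part.

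**Figure D2:**
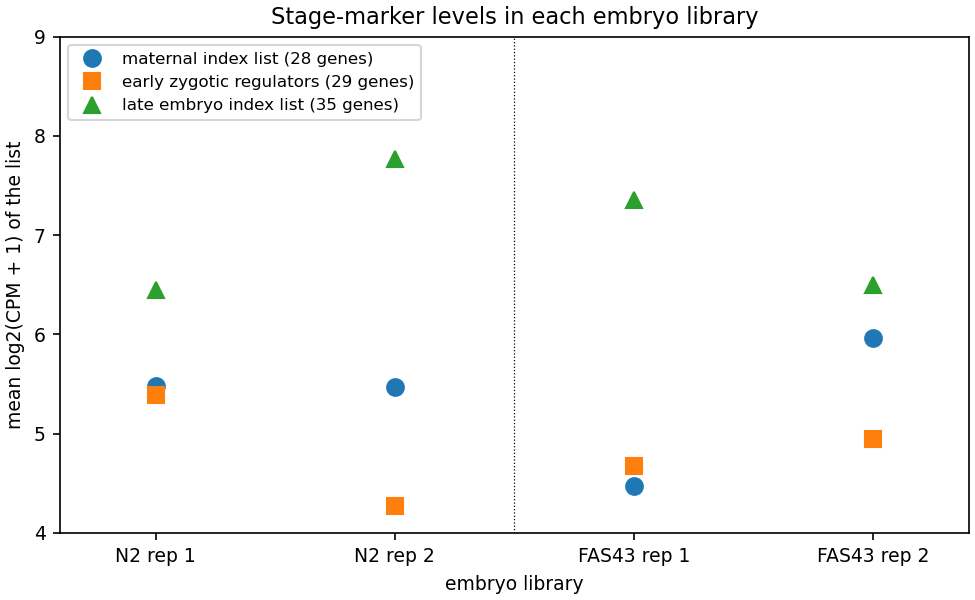
Mean log2(CPM + 1) of the maternal, early zygotic and late embryo gene lists in each embryo library, 1 point per list and library. The late list is at 7.76 in N2 replicate 2 and 7.35 in FAS43 replicate 1 and between 6.45 and 6.502 in the other 2 libraries, and the maternal list is lowest, at 4.47, in FAS43 replicate 1.

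An age index was formed per library as the late mean minus the maternal mean (index A). It was 0.968 and 2.29 in N2 and 2.88 and 0.538 in FAS43, for replicates 1 and 2. The genotype means were 1.63 for N2 and 1.71 for FAS43. The index thus differed far more within each genotype than between the means. With the early zygotic list in place of the maternal one (index B), the values were 1.06 and 3.496 in N2 and 2.68 and 1.56 in FAS43, with means of 2.28 and 2.12.

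The libraries were then set against each other one pair at a time, over the 9176 genes with a mean of at least 5 CPM and on log2(CPM + 0.5). N2 replicates 1 and 2 differed by more than 2-fold in 3144 genes (34.3%), and FAS43 replicates 1 and 2 in 2029 genes (22.1%). Across genotypes, FAS43 replicate 2 and N2 replicate 1, which both had low late RNA, differed by more than 2-fold in 335 genes (3.65%), of which 261 were higher and 74 lower in FAS43 replicate 2. FAS43 replicate 1 and N2 replicate 2 did so in 1140 genes (12.4%). The libraries with equal replicate numbers differed in 1765 genes (19.2%) for replicate 1 and in 1825 (19.9%) for replicate 2. By this count every pair taken across genotypes was closer than either pair within a genotype, but other measures ordered the pairs differently. The median absolute log2 ratio was 0.706 between the N2 and 0.538 between the FAS43 replicates. Across genotypes it was 0.316 for FAS43 replicate 2 and N2 replicate 1 and between 0.567 and 0.631 for the other 3 pairs, above that of the FAS43 replicates. The SD of the log2 ratio was 0.854 for the replicates numbered 1, also above the 0.805 of the FAS43 replicates. Between the genotype means, which average 2 libraries a side and so vary less, 85 genes (0.926%) differed by more than 2-fold, and the SD of the log2 difference was 0.347, against SDs of 0.999 and 0.805 between the N2 and between the FAS43 replicates.

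**Figure D3:**
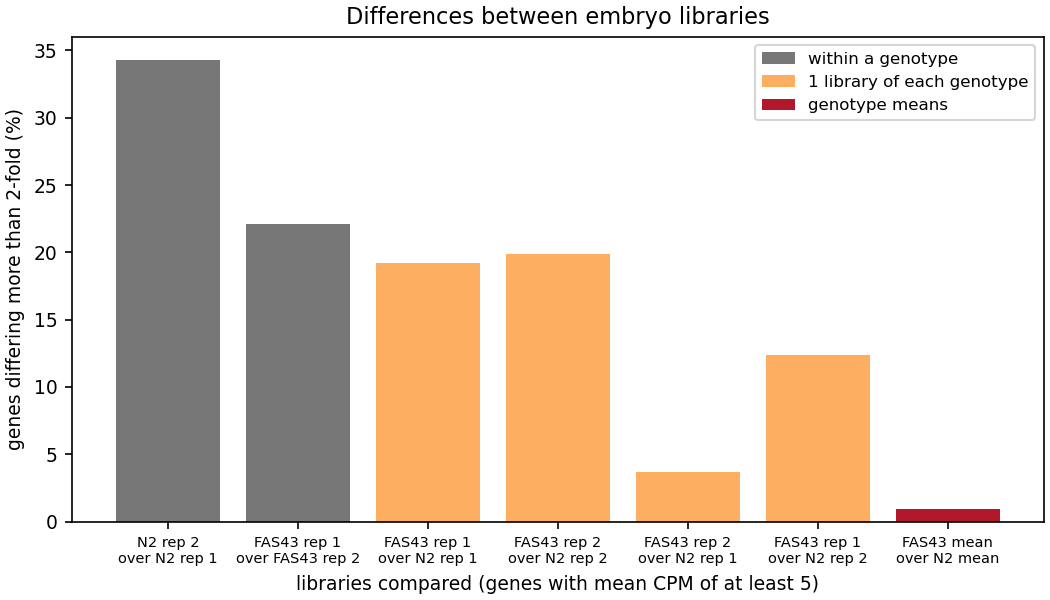
Percent of the 9176 genes with a mean of at least 5 CPM that differ by more than 2-fold in each pair of embryo libraries (grey within a genotype, orange across genotypes) and between the genotype means (red). The bars reach 34.3% and 22.1% within genotypes, between 3.65% and 19.9% across genotypes and 0.926% for the means.

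Most genes had small genotype differences, but no single gene was bounded closely. The log2 fold change lay within 1.5-fold for 11592 of 13617 genes (85.1%), with a median over all genes of -0.08. The 95% interval stayed within 2-fold for 0 genes (0%) with edgeR, and the counts with limma and DESeq2 were 0 and 0. The smallest bound that an interval placed on any gene was 2.28-fold, the median bound was 3.24-fold, and 9785 genes (71.9%) had intervals within 4-fold, a margin chosen after the intervals were seen. The share of genes within 1.5-fold was 71.9% at mean levels from 1 to 5 CPM, 90.2% from 5 to 50 CPM and 96.8% at 50 CPM or more. The median SE was 0.895 in the first of these classes and 0.716 in the second. The fit shared one spread among genes of like abundance and left no gene its own, so an interval describes the spread of such genes in these libraries and not how steady a gene was.

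How steady a gene was could be seen in the 4 libraries. The 8 steadiest named genes of at least 50 CPM spanned between 0.07 and 0.20 on the log2 scale from lowest to highest library. Nex-2, an annexin gene, had 82.0 and 81.4 CPM in N2 and 85.7 and 84.2 CPM in FAS43. Mdh-1, a malate dehydrogenase gene, had 252 and 266 CPM in N2 and 243 and 273 CPM in FAS43. Among the other 6 were wah-1 (an apoptosis-inducing factor homologue), ptr-23 (patched-related), sox-2 (a transcription factor), cwn-2 (a Wnt ligand) and upb-1 (a beta-ureidopropionase homologue). All 8 were picked for their small span, so this is a description. Their intervals were no narrower than those of other genes of their level: the log2 fold change of nex-2 was 0.06, with an interval from -1.19 to 1.30. Over all genes, 6237 of 13617 (45.8%) spanned less than 2-fold over the 4 libraries.

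The reference genes, often used to scale RNA measurements in worms, were less steady than these 8, which were picked for a small span. Their median span over the 4 libraries was 2.02-fold, close to the 2.07-fold of all tested genes. All 9 had log2 fold changes within 1.5-fold, from -0.34 for ama-1, which encodes the large subunit of RNA polymerase II, to 0.05 for Y45F10D.4. Tba-1, an alpha tubulin gene, had 2091 and 1498 CPM in N2 and 784 and 2848 CPM in FAS43. Its genotype estimate of 0.02 came from FAS43 libraries that were the lowest and the highest of the 4. For pmp-3, a peroxisomal transporter gene, the levels were 138 and 221 CPM in N2 against 109 and 193 CPM in FAS43. Rbd-1, an RNA-binding factor of ribosome assembly, had 91.5 and 89.7 CPM against 64.9 and 95.5 CPM. In 7 of the 9 genes the estimate was negative, against 8157 of all 13617 genes (59.9%). The list's median was -0.18, or 0.02 with a filter of 1 CPM in 2 libraries, and 3 of the 9 spanned less than 2-fold. Only Y45F10D.4 was not at its lowest in FAS43 replicate 1, the library low in maternal RNA; it was lowest in N2 replicate 2.

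Families of core cell machinery had genotype differences close to those of all genes. Over 17 such families, 521 of 532 tested members (97.9%) lay within 1.5-fold, against 85.1% of all genes and 96.8% of the 4454 genes with at least 50 CPM. In these families 0 members were called with edgeR or with DESeq2, and 1 had an unadjusted p under 0.05. Over all genes the edgeR shares were 0.022% and 0.698%, so these counts do not set the core families apart. The family medians ran from -0.27 to 0.13, except for the CCT chaperonin described below. That span is close to the reach of the scaling: with a filter of 1 CPM in 2 libraries the median of all genes moved from -0.08 to 0.10, and many core and chromatin medians turned from negative to positive with it, so these medians are given as sizes and not as directions.

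Cytosolic ribosomal protein genes were the steadiest of these families. Their median log2 fold change was 0.13, 79 of 80 lay within 1.5-fold, and the median span over the 4 libraries was 1.39-fold. The median member had 673 and 594 CPM in N2 and 782 and 611 CPM in FAS43. Among members of at least 5 CPM the estimates ran from -0.39 for rps-2 to 0.30 for rpl-25.2. Mitochondrial ribosomal protein genes had a median of 0.05 with all 66 members within 1.5-fold, and V-ATPase genes, which encode the proton pump of endosomes and lysosomes, had one of -0.17 with all 20 within it.

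Proteasome genes had like genotype means although their libraries differed widely. The median member had 325 and 152 CPM in N2 and 151 and 267 CPM in FAS43. The median difference between replicates was -1.09 on the log2 scale for N2 replicate 2 over 1 and -0.95 for FAS43 replicate 1 over 2. Both libraries rich in late RNA thus had less than the other library of their genotype. Between the genotypes the median log2 fold change was -0.18, and all 33 members lay within 1.5-fold, from -0.40 for rpt-4, a base ATPase, to 0.16. Splicing factor genes had the same form, with replicate differences of -0.61 and -0.82, a genotype median of -0.09 and all 35 members within 1.5-fold. Translation factor genes had replicate differences of -0.74 and -0.68 and a genotype median of -0.15, with all 38 members within it.

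In other families the replicate differences were less alike in size or sign in the genotypes, which was not tested. RNA polymerase subunit genes differed by -1.12 between the N2 replicates and by -0.18 between those of FAS43, and Mediator genes, which link transcription factors to RNA polymerase II, by -1.06 and -0.21. Their genotype medians were 0.01 and -0.14. Nuclear pore genes differed by 0.11 and -1.22, and replication licensing and fork genes by -0.35 and -1.28, with genotype medians of -0.13 and -0.09. For the 5 actin genes the replicate differences were 0.52 and -1.001, and the genotype median was -0.24. Act-2 ran within FAS43 from 381 CPM in replicate 1 to 2068 CPM in replicate 2. Respiratory chain genes had a genotype median of 0.02 with all 45 members within 1.5-fold. tRNA synthetase genes had one of -0.23 with all 34 members within it, but 31 were negative and 11 lay below both N2 libraries in both FAS43 libraries, against 7.46% of all genes. Coatomer and COPII genes of vesicle transport had a median of -0.27, with 12 of 13 negative and 5 of 13 below both N2 libraries.

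**Figure D4:**
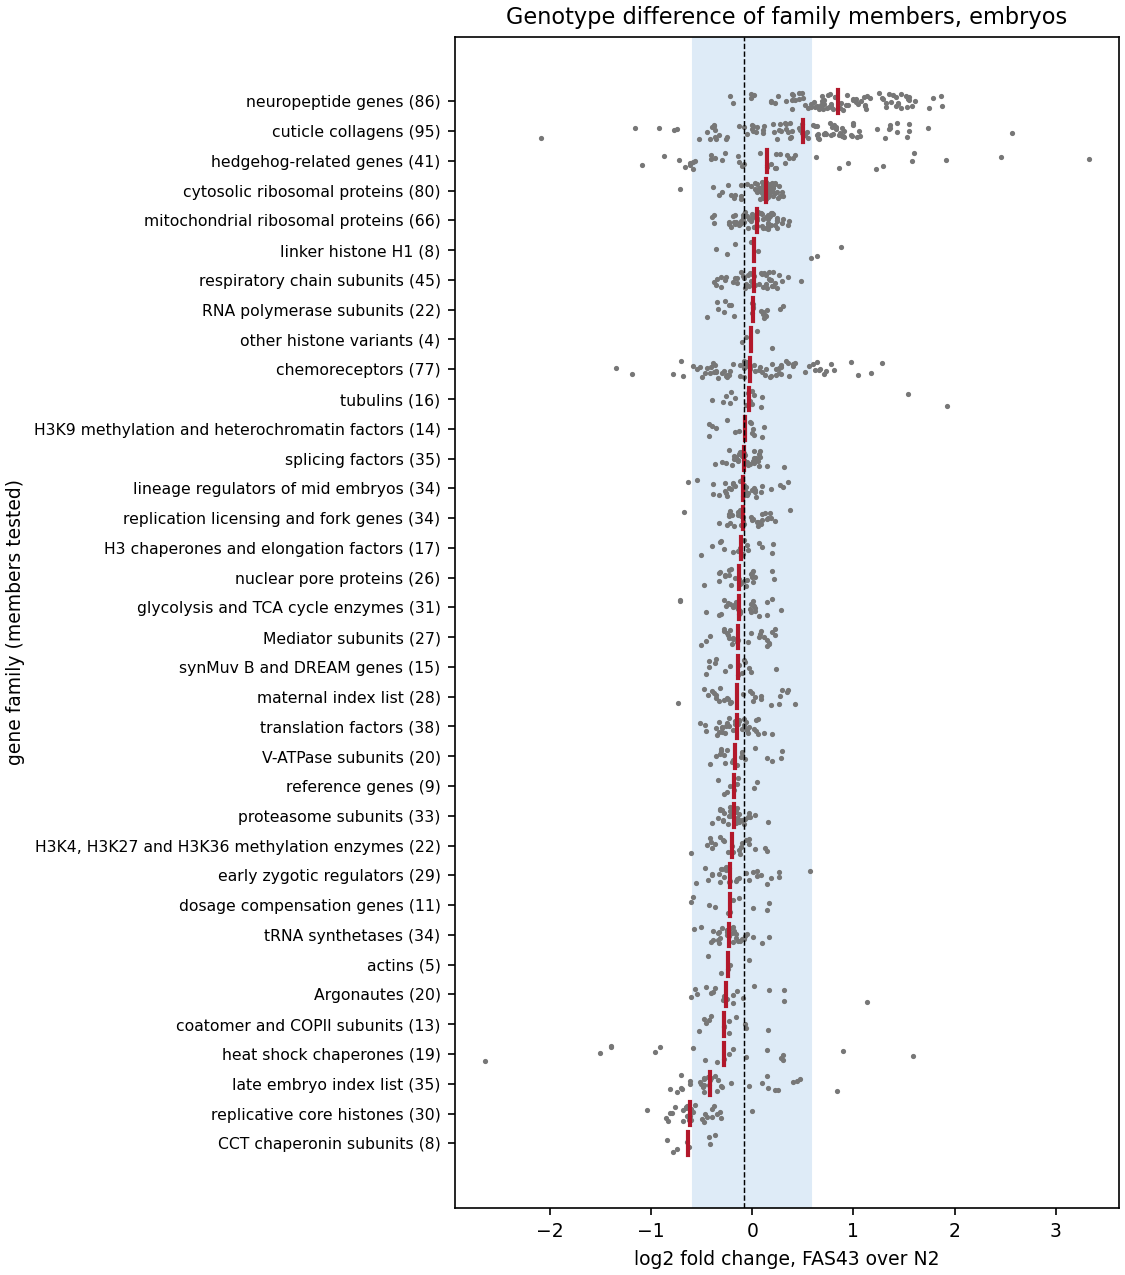
Log2 fold change (FAS43 over N2) of each tested member (grey points) and the median (red bar) for families with at least 4 tested members; the blue band marks 1.5-fold and the dashed line the median of all genes, -0.08. Most families sit inside the band, while neuropeptide genes and cuticle collagens reach to the right and replicative histones and the CCT chaperonin lie near its left edge.

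The genes that handle or modify H3 were examined next, since they act on the histone whose genes are mutated in FAS43. In 8 chromatin families other than the H3.3 and replicative histone genes, 99 of 106 tested members (93.4%) lay within 1.5-fold. The share was 85.1% of all genes and 96.8% of the 4454 genes with at least 50 CPM, so these families were not steadier than well-expressed genes. In these families 0 members were called with edgeR or DESeq2 and 0 had an unadjusted p under 0.05. Over all genes these shares were 0.022% and 0.698%, so counts of 0 among 106 genes do not set the families apart. H3 chaperones and elongation factors had a median of -0.11, with all 17 members within 1.5-fold, from -0.50 for hmg-3, a subunit of the FACT complex, to 0.20 for nasp-2, a NASP-type histone chaperone gene. Nasp-2 had 953 and 873 CPM in N2 and 306 and 1797 CPM in FAS43, so that its FAS43 libraries lay on both sides of N2. The family as a whole differed by -1.04 between FAS43 replicates 1 and 2 and by -0.39 between N2 replicates 2 and 1.

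Genes that make or read H3K9 methylation had a median of -0.08, with all 14 within 1.5-fold, from -0.43 for the methyltransferase gene set-25 to 0.12 for set-23. The enzymes of H3K4, H3K27 and H3K36 methylation had a median of -0.20, with 21 of 22 within it. The exception was set-16, an H3K4 methyltransferase gene of the MLL type, at -0.61 (SE 0.637, edgeR adjusted p = 0.9999), which had 400.3 and 492 CPM in N2 and 285 and 301 CPM in FAS43. SynMuv B and DREAM genes, which repress germline genes in the soma, had a median of -0.14 with all 15 within 1.5-fold. Dosage compensation genes, which lower transcription of the X in hermaphrodites, had one of -0.22 with 9 of 11 within it. The lowest was dpy-21, an H4K20 demethylase gene, at -0.61 (SE 0.639).

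Argonaute genes had a median of -0.26, with 18 of 20 within 1.5-fold. Prg-1, the Piwi Argonaute of the germline, had 56.7 and 72.1 CPM in N2 and 28.99 and 130.8 CPM in FAS43. Linker histone H1 genes had a median of 0.02 with 6 of 8 within 1.5-fold. The other 2 were at least 1.5-fold higher, against 9.07% of all genes. In 2 of the 8 both FAS43 libraries lay above both N2 libraries, against 3.49% of all genes. Hil-6 had the largest estimate, with 12.4 and 4.52 CPM in N2 against 12.6 and 18.4 CPM in FAS43, and N2 replicate 2 was the low library. Its estimate of 0.88 on the log2 scale (SE 0.757) was not called. All 4 other variants, which include H2A.Z (htz-1) and CENP-A (hcp-3), lay between -0.10 and 0.19.

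In 4 further families the median was -0.61 or lower or 0.50 or higher, and none held a member called in the fit on genotype alone with edgeR or with DESeq2. Their medians kept their sign with RLE scaling, DESeq2 and the 1 CPM filter, but each turned sign when 1 library, named below, was left out. The CCT chaperonin, which folds actin and tubulin, had a median log2 fold change of -0.64. Its 8 genes were all negative, and 5 of them had estimates at least 1.5-fold lower in FAS43, against 790 of all genes (5.8%); 0 had an unadjusted p under 0.05. The median member had 193 and 338 CPM in N2 and 141 and 197 CPM in FAS43. N2 replicate 2 was thus the high library, and N2 replicate 1 and FAS43 replicate 2 were alike. Cct-6 lay farthest from 0, at -0.84 (SE 0.646), with 171 and 324 CPM in N2 and 124 and 153 CPM in FAS43. Without N2 replicate 2 the family median was 0.01, against 0.16 for all genes.

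Replicative histone genes, made in S phase and including the replicative H3, had a median of -0.61. All 30 tested genes were negative, against 59.9% of all genes, and 18 had estimates at least 1.5-fold lower, against 5.8%. An unadjusted p under 0.05 was found for 0, against 0.698% of all genes. The median member had 9.74 and 5.99 CPM in N2 and 4.13 and 6.89 CPM in FAS43, so FAS43 replicate 2 lay above N2 replicate 2. Among the pairs across genotypes the median difference was -0.71 for FAS43 replicate 2 over N2 replicate 1 and -0.11 for FAS43 replicate 1 over N2 replicate 2. With index A in the fit 18 of the 30 lay within 1.5-fold, against 12 without it, and the median was 0.05 without N2 replicate 1. Many of these genes are near-identical copies whose reads the counting may have split, so single members are uncertain.

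Neuropeptide genes, whose products are signals released by neurons of late embryos, had a median of 0.84. Of 86 tested, 82 were positive, against 5460 of all genes (40.1%). Estimates were at least 1.5-fold higher for 63, against 1235 of all genes (9.07%). Low genes spread more: 71.9% of all genes at 1 to 5 CPM lay within 1.5-fold, against 23 of these 86. Both FAS43 libraries lay above both N2 libraries in 11, against 3.49% of all genes, and below both in 0, against 7.46%. An unadjusted p under 0.05 was found for 3, against 0.698%. The median member had 0.577 and 1.78 CPM in N2 and 3.09 and 1.16 CPM in FAS43, so both libraries rich in late RNA were high and FAS43 replicate 1 was the highest. The median difference was 1.69 for FAS43 replicate 1 over N2 replicate 1 and -0.45 for FAS43 replicate 2 over N2 replicate 2. Between the libraries with like late RNA it was 0.46 for FAS43 replicate 2 over N2 replicate 1 and 0.83 for FAS43 replicate 1 over N2 replicate 2. The family median was 0.74 with index A in the fit and -0.10 without FAS43 replicate 1, but 2.17 without N2 replicate 2 and 1.63 without FAS43 replicate 2. Nlp-24, the largest estimate among members of at least 5 CPM, had levels of 2.53 and 8.71 CPM in N2 against 33.3 and 5.51 CPM in FAS43, which overlapped. The log2 fold change of nlp-24 was 1.79, and it was called only with index B (1.86, edgeR adjusted p = 0.03429). The late embryo list itself, of muscle and matrix genes, lay on the other side, with a median of -0.41 that was 0.61 without N2 replicate 2; 7 of its 35 members were at least 1.5-fold lower and 1 higher.

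Cuticle collagens, which form the larval cuticle and are switched on late in embryos, had a median of 0.50. Of 95 members, 44 were at least 1.5-fold higher, against 9.07% of all genes, and 5 lower, against 5.8%. Within 1.5-fold lay 46, against 71.9% of all genes at 1 to 5 CPM. Both FAS43 libraries lay above both N2 libraries in 5 members and below both in 6, against 3.49% and 7.46% of all genes. An unadjusted p under 0.05 was found for 2, against 0.698%. The median member had 1.01 and 2.32 CPM in N2 and 2.92 and 1.76 CPM in FAS43. Their median was -0.25 without FAS43 replicate 1, -0.03 without N2 replicate 1, 1.64 without N2 replicate 2 and 0.96 without FAS43 replicate 2. Sqt-3, an abundant cuticle collagen, had an estimate of -0.52 (SE 0.616) and col-104, among the less abundant, one of 1.05 (SE 0.719). Col-104 ranged within N2 from 2.46 to 24.3 CPM and within FAS43 from 11.9 to 43.7 CPM. The log2 fold change of col-104 was called only without N2 replicate 2 (3.71, edgeR adjusted p = 0.0261). Hedgehog-related genes of the epidermis, also late, had a median of 0.15 and replicate differences of 1.58 in N2 and 0.97 in FAS43. Chemoreceptor genes, whose median member had between 0.679 and 0.819 CPM in the 4 libraries, had a median of -0.02 with 59 of 77 within 1.5-fold.

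Heat shock chaperone genes had a median of -0.28, or 0.24 without N2 replicate 2, and 11 of 19 lay within 1.5-fold, against 85.1% of all genes. Of the 19, 6 were at least 1.5-fold lower and 2 higher, against 5.8% and 9.07% of all genes, 4 had an unadjusted p under 0.05, against 0.698%, and 0 were called with edgeR or DESeq2. Hsp-70, a heat-inducible cytosolic HSP70 gene, had 17.3 and 109.0 CPM in N2 and 10.6 and 9.74 CPM in FAS43, and hsp-110 had 277 and 889 CPM against 178 and 234 CPM. For both genes N2 replicate 2 stood far above the other 3 libraries. The log2 fold change of hsp-70 was -2.64 (SE 0.716) with an edgeR adjusted p of 0.5298, and -0.55 without N2 replicate 2. Hsp-110 had one of -1.501 (SE 0.648). Across the alternatives of the analysis, hsp-70 was called only without N2 replicate 1 (estimate -3.42, edgeR adjusted p = 0.006951), which left N2 replicate 2 as the lone wild-type library.

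**Figure D5:**
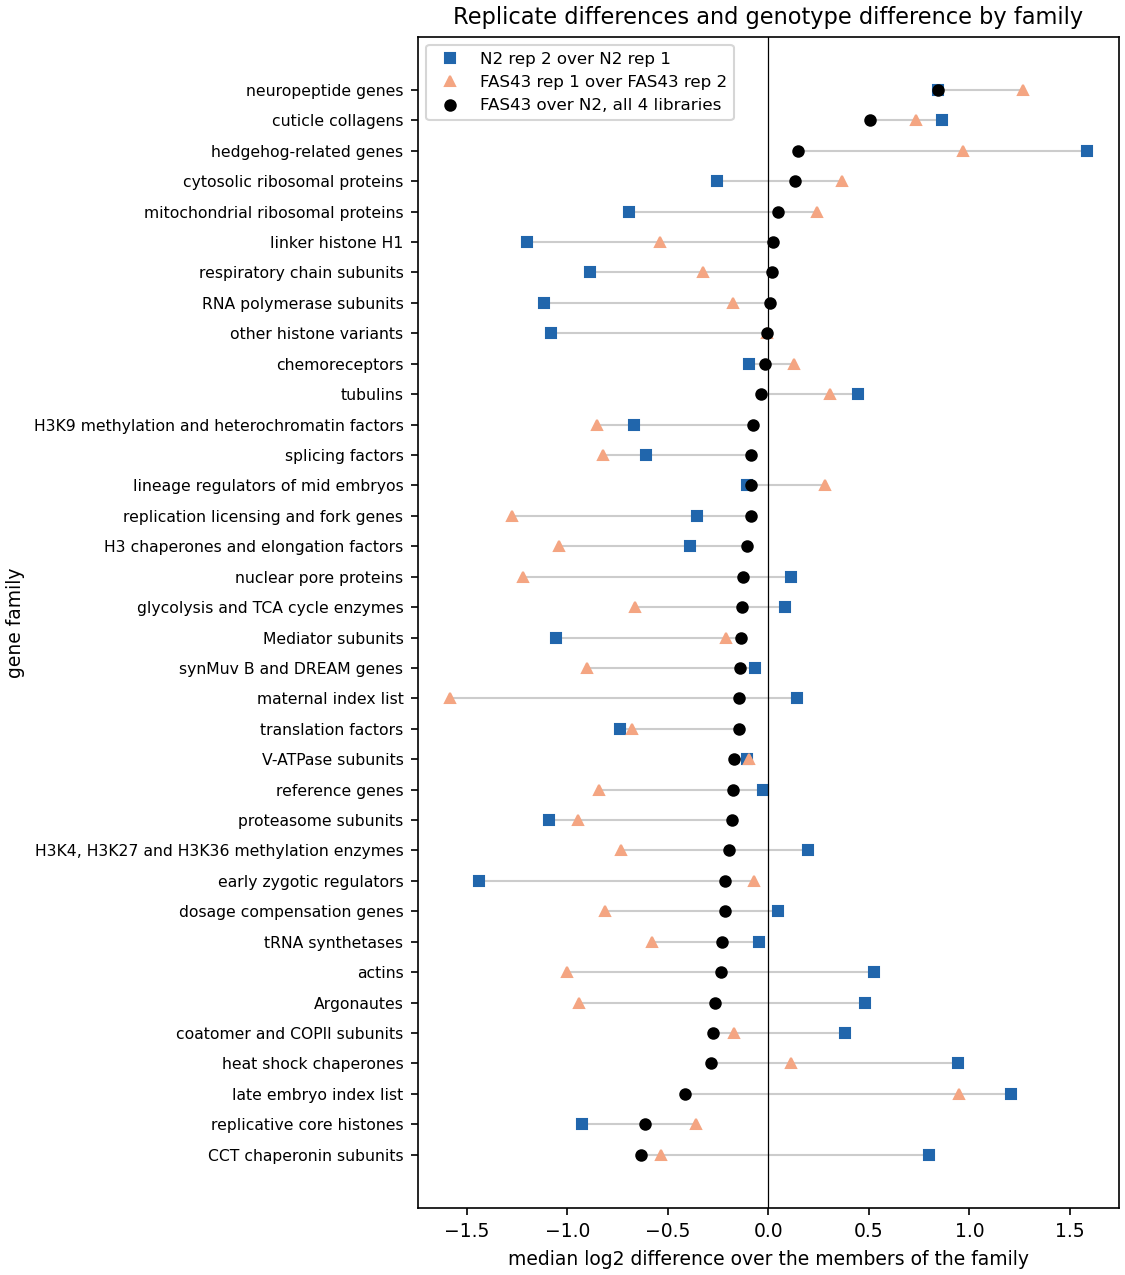
Median log2 difference over the members of each family between the N2 replicates (blue squares), between the FAS43 replicates (orange triangles) and between the genotypes (black circles, log2 fold change of the fit), for families with at least 4 tested members, which leaves out the H3.3 genes. Replicate medians reach from -1.58 to 1.58, while the genotype medians lie between -0.64 and 0.84.

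To set the genotype apart from age, index A was added to the fit as a covariate. The same 3 genes were called (0.022% of those tested), 129 genes (0.947%) had an unadjusted p under 0.05, and the log2 fold changes moved by a median of 0.05 and by 0.19 at the 90th percentile. Since index A had nearly equal genotype means, the fit could hardly move them, and these small shifts do not show that age and genotype were separated. The medians of the core families other than CCT ran from -0.40 to 0.12 in this fit, and that of CCT was -0.65. The interval stayed within 2-fold for 7 genes (0.0514%). With index B instead, 108 genes were called higher (0.793%) and 3 lower (0.022%), and 535 embryo genes with interval within 2-fold were counted. The genotypes did not overlap in 17 of these 111 genes; over all genes 3.49% lay wholly higher and 7.46% wholly lower. The called genes included 5 cuticle collagens, 4 hedgehog-related genes and 2 neuropeptide genes, the H3.3 genes his-71 and his-72, and 0 members of the core and other chromatin families. The calls beyond the 3 genes and the width of the intervals thus depended on which early list defined age. Each fit with an index kept 1 residual degree of freedom.

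In some genes the genotypes did not overlap. FAS43 was above both N2 libraries in 475 genes (3.49%) and below both in 1016 (7.46%). By the smallest unadjusted p in the fit with index A, the named genes of at least 5 CPM that were higher were nspe-1, skpo-1, linc-12, hil-6, fat-2 and lbp-2, and none of them was called in that fit. With index B nspe-1 and, among the lower genes below, slc-17.5 were called. Fat-2, which encodes a fatty acid desaturase, had 6.78 and 9.31 CPM in N2 against 14.1 and 14.01 CPM in FAS43, a log2 fold change of 0.81 with and without the index. Skpo-1, a peroxidase gene, had 3.20 and 4.72 CPM against 6.84 and 9.30 CPM (log2 fold change 1.03, SE 0.821). Nspe-1 had the largest estimate, 2.52 (SE 0.858, edgeR adjusted p = 0.9999), but it rested on FAS43 replicate 1, with 17.8 CPM there against 1.12 and 2.60 CPM in N2 and 3.59 CPM in FAS43 replicate 2. The lower genes were his-72, his-71, hsp-70, slc-17.5, hsp-16.41 and hsp-110. Slc-17.5, a solute carrier gene, had 4.13 and 24.3 CPM against 3.35 and 2.08 CPM, and hsp-16.41, a small heat shock gene, 110.4 and 263 CPM against 109 and 33.7 CPM.

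The L1 larvae of the same strains, separate libraries of the series, gave a further look at these genes. In L1 3 of 16099 tested genes were called (0.0186%), and these were again his-71, his-72 and Y75B8A.33. Of the 12 genes named from the fit with index A, 10 had the same sign in L1 as in embryos, 3 had an unadjusted p under 0.05 there and 2, his-71 and his-72, were called. These 2, whose genes are mutated in FAS43, are among the 10. The share of same signs over all genes was not taken, so the count of 10 is a description only. The genes of opposite sign were nspe-1, with a log2 fold change of -1.11 in L1, and lbp-2, with one of -0.19. Among the lower genes, hsp-16.41 had one of -2.65 (edgeR adjusted p = 0.3839), hsp-110 one of -0.90, hsp-70 one of -0.81 and slc-17.5 one of -0.17. Among the higher ones, hil-6 had one of 0.90, fat-2 one of 0.33, linc-12 one of 0.24 and skpo-1 one of 0.02. In a joint fit of both stages the genotype effect of none of the named genes differed between L1 and embryos at an edgeR adjusted p under 0.05. The lowest such value was 0.9986. Even estimated differences (L1 minus embryo, log2) of 3.71 for his-72 and -3.92 for nspe-1 did not pass. The fit therefore does not show that the genotype effects were alike in both stages.

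By chromosome the genotype difference was even. The median log2 fold change ran from -0.12 on X to -0.04 on V, and the share of genes within 1.5-fold from 80.6% on V to 90.1% on I. The X chromosome had the largest replicate differences, with medians of 0.51 in N2 and 0.33 in FAS43, each for the library rich in late RNA over the other.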

How the data were processed

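The deposited embryo table held the authors' raw counts per gene, 1 column for each of 4 libraries. The submitters' processing notes name build WBcel235 and the tools HTSeq 0.6.1, TopHat2 2.0.13 and edgeR 3.10.5, with settings that the sources used here do not give. The deposited table also has, per the file headers, a normalized signal, a log2 fold change and abundance, and p-values, none of them tested here. Of 13692 listed genes, 13617 passed filterByExpr. Counts were scaled with TMM and tested by the quasi-likelihood F-test of edgeR 4.0.16 (R 4.3.3), genotype the only term leaving 2 residual degrees of freedom. The Benjamini-Hochberg adjustment ran over all tested genes, with calls under 0.05. Each SE was derived from the F statistic and the log2 fold change, and 95% intervals follow from it. CPM used TMM library sizes; levels of single libraries were compared as log2(CPM + 0.5). Limma 3.58.1 and DESeq2 1.42.0 served as alternatives, and L1 counts (16249 genes listed) were fitted alike. Counts of 17408914 or more per library leave counting error small except for low genes. Coordinates are from the Ensembl annotation of WBcel235; sequences were not used here.

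The members and gene lists were chosen with earlier results of these data known, so no list was tested as a set; each is described by counts and medians beside those of all genes. Current gene symbols matched 13147 of the listed IDs. Named genes were the H3.3 genes, called genes, all reference genes, the 8 steadiest of at least 50 CPM, the lowest and highest member of each family of at least 5 CPM, and 6 genes in each direction from the fit with age index A; the text gives those that carry a comparison. The procedures were run on simulated data as a check of the code. The simulation with age used a smaller spread than the fits with an index gave. It therefore does not measure which differences these data could detect. The alternatives were another scaling (RLE), DESeq2, limma, another quasi-likelihood spread, other filters, each library left out, a replicate block and both age indices.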

Additional observations from a re-analysis of the deposited data

How the results depend on the processing

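The calls of his-71, his-72 and Y75B8A.33 kept their direction and stayed past the threshold in every alternative run. The number of genes called higher was 1 in most settings, 108 with age index B, and between 1 and 21 when 1 library was left out (21 without N2 embryo replicate 2). The number called lower ran from 2 to 5 (5 without N2 embryo replicate 1). With index A, limma-trend called 2 higher genes in place of 1, and index B 108. Embryo genes with interval within 2-fold numbered 0 in the main fit and whichever library was left out, 1 with the 1 CPM filter, 7 with index A, 535 with index B and 9785 with a 4-fold margin. Neither fit with an index could be run with a library left out, since no residual degree of freedom would remain.

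Libraries with equal replicate numbers did not deviate alike: the deviations of the replicates numbered 1 from their genotype means correlated at -0.47 over genes. The libraries rich in late RNA were N2 replicate 2 and FAS43 replicate 1. This value therefore cannot tell whether libraries with equal numbers shared a culture or batch, which the labels do not give. With the replicate block, 1 gene was called higher, 2 lower, and 3 had an interval within 2-fold. With the crossed block, chosen after seeing the data, 16 were called higher and 2 lower, and 10 had such an interval.

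The 1 CPM filter moved the median of all genes from -0.08 to 0.10, and family medians moved with it. Of 39 medians (38 families and all genes), 38 turned sign in at least 1 setting, and so did 64 of 100 named genes. The cause was not tested.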
